A study of Mus musculus with 18 samples.

Results

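The 4 cytokine genes, Il9, Il3, Csf2 and Il10, were followed across 18 RNA-seq libraries of mouse CD4 T cells. The members were chosen by gene name, with their levels in these 6 groups known from earlier results, and all 4 were present among the 12547 genes of the deposited table. Their levels and differences are therefore given as a description, without a test. The cultures started from naive cells, stimulated through CD3 and CD28 on microbeads in medium for Th1 differentiation, which held IL2, IL12 and anti-IL4. In all groups these conditions were shared, and each of the sets 3, 5 and 6 had 3 Id3 knockout (KO) and 3 wild-type (WT) libraries. What a set is was not labelled. In the authors' deposited table the contrasts are named with 24 for set 3 and with 96 for sets 5 and 6, with no unit. The strain, the age of the mice, the kind of knockout and whether replicates came from separate mice were not given in the sources used here, so all spreads are those between these libraries.

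IL9, IL3 and GM-CSF, the product of Csf2, are growth and survival factors that activated T cells release to act on mast cells, basophils, granulocytes and macrophages. IL10 restrains inflammation by acting on antigen-presenting cells and T cells, and Th1 cells can switch it on when stimulation is strong or lasting. Il3 and Csf2 lie side by side in the cytokine cluster that also holds Il4, Il5 and Il13, while Il10 lies in a cluster of IL10 family genes. Id3 pairs with E proteins, a class of helix-loop-helix factors, and so prevents their binding to the E-box motif in DNA. E proteins and GATA3 are known activators of Il9, and Id3 is known to limit them in helper T cells.

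Because Il9, Il3 and Csf2 were high together in KO cells of set 3, the sequences before their start sites are shown. They are the 250 bases before the start of Il9 (chr13:56482258-56482507), Il3 (chr11:54267280-54267529) and Csf2 (chr11:54249900-54250149), from RefSeq on GRCm38.p6, all on the minus strand. Promoters were matched for 3 of the 4 members. Capitals mark the E-box CANNTG, the AP-1 motif TGANTCA and the TATA motif TATAA, each searched on both strands.
Il9: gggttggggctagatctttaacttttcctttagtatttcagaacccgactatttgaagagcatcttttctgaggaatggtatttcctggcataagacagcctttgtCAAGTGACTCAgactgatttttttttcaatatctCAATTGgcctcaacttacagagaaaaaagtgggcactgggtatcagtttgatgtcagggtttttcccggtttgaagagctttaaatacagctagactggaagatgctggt
Il3: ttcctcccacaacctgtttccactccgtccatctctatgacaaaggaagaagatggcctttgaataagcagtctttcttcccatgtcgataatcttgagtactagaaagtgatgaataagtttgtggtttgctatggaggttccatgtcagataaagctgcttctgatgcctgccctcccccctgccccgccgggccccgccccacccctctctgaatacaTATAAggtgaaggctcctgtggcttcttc
Csf2: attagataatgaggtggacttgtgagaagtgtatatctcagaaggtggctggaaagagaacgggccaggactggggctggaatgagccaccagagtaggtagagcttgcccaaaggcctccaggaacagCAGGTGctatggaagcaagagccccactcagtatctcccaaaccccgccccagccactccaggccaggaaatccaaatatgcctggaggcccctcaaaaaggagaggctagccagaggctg
The Il9 stretch held 2 E-boxes, CAAGTG from -144 to -139 and CAATTG from -110 to -105 counted from the start site. The first overlapped an AP-1 motif, TGACTCA, from -140 to -134. The Csf2 stretch held 1 E-box, CAGGTG from -121 to -116, and the Il3 stretch had no match to CANNTG and a TATA motif from -29 to -25. Among 32851 promoter stretches of the same length, 66.2% held an E-box, 6.75% the AP-1 motif and 22.8% the TATA motif. The NFAT core GGAAA matched 3 times in Il9, 1 time in Il3 and 2 times in Csf2, against 55.6% of all stretches with a match. The GATA core GATA matched 2, 2 and 3 times, against 53.6% of all stretches. These matches describe letters and do not show binding.

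The deposited values are on a log2 scale of counts and reached 19.5, and they are not adjusted for gene length, so levels are compared within a gene only. The lowest value of a library lay between 1.0 and 1.11 and was shared by 149 to 350 genes. A gene there is listed at the lowest value. Within a group, the libraries shared 97.0 to 98.4% of their values once sorted, within a tolerance of 1e-06, so the depth of single libraries is unknown and the spread within groups may be too small. The median of all genes was shifted in KO against WT cells, by -0.070 (set 3), 0.39 (set 5) and 0.42 (set 6). Id3, the deleted gene, stood at or below 5.63 in all KO libraries and at or above 8.85 in all WT libraries. In bulk RNA, fewer cells that make a transcript and less transcript per cell cannot be told apart.

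Il9 had its highest values in KO cells of set 3 and lower values in sets 5 and 6. Its log2 values in KO cells of set 3 were 13.79, 12.44 and 12.39. In WT cells of set 3 they were 6.70, 8.86 and 6.49. No library of the 2 groups overlapped, and the mean was 46.0-fold higher in KO cells, a log2 difference of 5.52 (SE 1.09). In set 5 the KO values were 6.03, 1.0 and 4.30, of which the second was the lowest value. All 3 WT libraries of set 5 were listed at the lowest value, so no fold is given, and 1 KO library lay there too. In set 6 the KO values were 6.59, 3.24 and 3.37 and the WT values were 2.94, 1.01 and 1.02, the last 2 of them at the lowest value. The KO libraries of set 6 lay above the WT libraries without overlap, by 2.74 (SE 1.09), a value that rests in part on the lowest value and was 1.65 without KO replicate 1. Ordered by mean, the groups ran from WT set 5 over WT set 6, KO set 5, KO set 6 and WT set 3 to KO set 3. Only KO set 3 stood clear of its neighbour in that order, and each other pair of neighbours overlapped.

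Il3 was also highest in KO cells of set 3, but its later difference depended on the set. The KO values of set 3 were 10.11, 10.10 and 7.17, against 5.83, 5.27 and 4.40 in WT cells. KO replicate 3 was the low one and still lay above every WT library of set 3. The difference of means was 3.96 (SE 0.74), or 15.6-fold. In set 5 the KO values were 3.82, 2.63 and 1.09, the last at the lowest value, and the WT values were 4.69, 3.31 and 4.13. These groups overlapped, with a difference of -1.53 (SE 0.74), or -0.82 without KO replicate 3. In set 6 the KO values were 5.94, 6.35 and 6.08, all above the WT values of 4.63, 3.79 and 3.55. The difference was 2.13 (SE 0.74), so the mean of Il3 was lower in KO than in WT cells in set 5 and higher in set 6. From the lowest mean the order was KO set 5, WT set 6, WT set 5, WT set 3, KO set 6 and KO set 3. The first 4 groups overlapped with their neighbours, while KO set 6 and KO set 3 each stood clear of the group before.

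KO and WT libraries of Csf2 stood apart in set 3 and overlapped in sets 5 and 6. Its KO values in set 3 were 10.93, 10.18 and 10.16, the tightest of the 4 genes in that group, and its WT values were 5.97, 6.56 and 6.66. The difference was 4.03 (SE 0.43), or 16.4-fold, without overlap. The set 5 levels of Csf2 were 6.38, 7.06 and 5.32 in KO cells, with 6.61, 6.80 and 8.00 in WT cells. They overlapped, with a difference of -0.88 (SE 0.43). In set 6 the values were 6.82, 8.03 and 7.25 in KO cells and 7.60, 7.32 and 7.84 in WT cells, again overlapping, with a difference of -0.22 (SE 0.43). Less the median of all genes, the later differences were -1.27 and -0.64. Set 5 gave -0.41 without KO replicate 3 and -0.45 without WT replicate 3. Set 6 gave 0.051 without KO replicate 1, -0.55 without KO replicate 2, -0.35 without WT replicate 2 and -0.10 without WT replicate 3. Every group but KO set 3 overlapped with its neighbour in the order of means, which ran from 6.25 in KO set 5 to 7.59 in WT set 6, and KO set 3 followed at 10.43.

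Il10 behaved differently from the other 3 genes, being higher in later sets in both genotypes and higher in KO than in WT cells in every set. In set 3 the KO values were 10.93, 8.56 and 10.71 and the WT values 6.26, 7.61 and 7.59. KO replicate 2 was the low one and lay above all WT libraries. In set 5 the KO values were 13.30, 13.01 and 13.36 and the WT values 10.12, 11.05 and 10.79. In set 6 they were 14.17, 14.00 and 14.20 in KO cells and 12.46, 12.64 and 12.69 in WT cells. The 3 differences of means, in set order, were 2.91, 2.57 and 1.52 (SE 0.47 each), or 7.53-fold, 5.93-fold and 2.88-fold. Less the median of all genes, these were 2.98, 2.18 and 1.11. In the order of means, WT set 3, KO set 3, WT set 5, WT set 6, KO set 5 and KO set 6, the pair KO set 3 and WT set 5 overlapped and each other pair of neighbours did not.

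**Figure D1:**
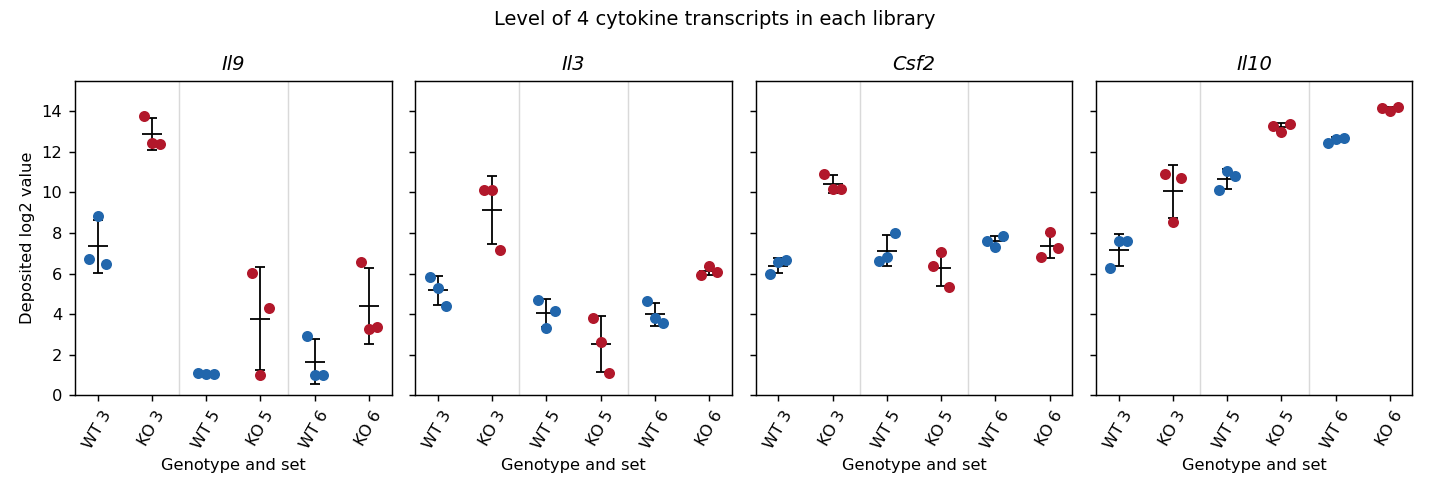
Deposited log2 value of each gene (vertical axis) in the 3 libraries of each genotype and set (horizontal axis); red points are KO and blue points WT libraries, and black bars give the mean and 1 SD. KO libraries of set 3 stand highest for Il9, Il3 and Csf2, and KO libraries of set 6, at 14.00 to 14.20, for Il10.

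All 4 members were higher in KO than in WT cells of set 3 without overlap, as were 12.0% of all genes. In set 5 this held for Il10 alone, 1 of 4 members, against 54.3% of all genes. In set 6 it held for Il9, Il3 and Il10, 3 of 4 members, against 59.1% of all genes. No member was lower in KO cells without overlap in any set, against 17.9%, 9.69% and 6.01% of all genes in sets 3, 5 and 6. These shares are given as background only, since the members were chosen with these contrasts known.

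**Figure D2:**
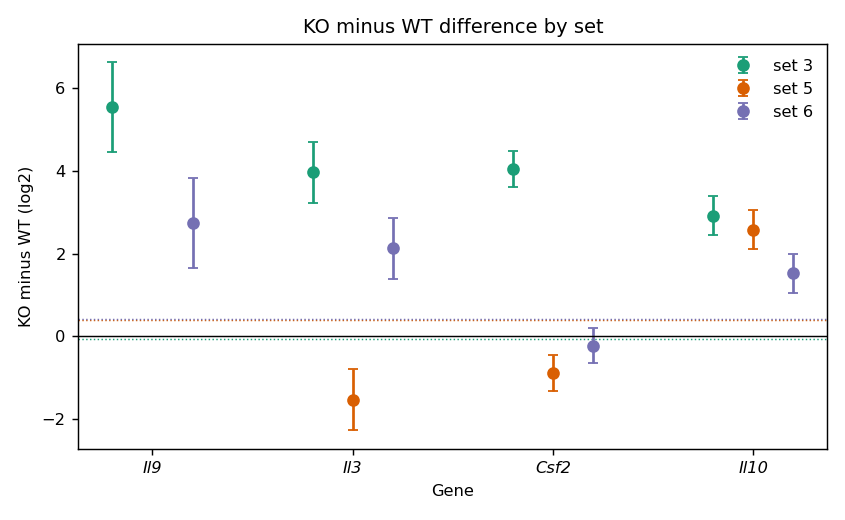
KO minus WT difference of means on the log2 scale (vertical axis) for each gene (horizontal axis) by set, with bars of 1 SE from the fit across all genes and dotted lines at the median difference of all genes. Il9 in set 5 is not drawn because its WT libraries were all at the lowest value; the largest difference is Il9 in set 3 at 5.52, and Il3 and Csf2 lie below 0 in set 5.

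Between sets, Il9, Il3 and Csf2 were lower and Il10 higher in later KO cells. In KO cells the difference of set 5 minus set 3 was -6.61 (SE 0.74) for Il3, in part resting on the lowest value, and -4.17 (SE 0.43) for Csf2. That of set 6 minus set 3 was -8.48 (SE 1.09) for Il9. All 3 genes lay lower in sets 5 and 6 than in set 3 without overlap, as did 23.5% and 19.8% of all genes. Il10 was higher by 3.16 in set 5 and by 4.06 in set 6 (SE 0.47 each), without overlap, as were 49.5% and 54.4% of all genes. In WT cells Il9 was lower in sets 5 and 6 than in set 3 without overlap (41.4% and 38.0% of all genes). Il10 was higher there by 3.5 and 5.44 (SE 0.47 each; 31.2% and 34.8% of all genes). Csf2 in WT cells was higher in set 6 than in set 3 by 1.19 (SE 0.43) without overlap, and Il3 overlapped between WT sets. From set 5 to set 6, Il10 was higher in both genotypes without overlap, and so was Il3 in KO cells, by 3.61 (SE 0.74). In that step 23.1% of all genes were higher without overlap in KO and 20.9% in WT cells. The KO effect of Csf2 was smaller in set 5 than in set 3 by a difference of -4.91 (SE 0.61) and that of Il3 by -5.49 (SE 1.04), which rests in part on the lowest value. For Il10 the same difference was -0.34 (SE 0.66), and leaving out 1 library gave -1.10, without KO replicate 2 of set 3, to 0.10, without WT replicate 1 of set 3. Set 6 minus set 3 gave -4.25 (SE 0.61) for Csf2 and -1.83 (SE 1.04) for Il3, the latter -2.81 without KO replicate 3 of set 3. It gave -1.39 (SE 0.66) for Il10, or -2.14 without KO replicate 2 of set 3. Over all genes, a KO effect differing from that of set 3 passed the adjusted threshold for 50.0% in set 5 and 50.3% in set 6 (limma). These comparisons share libraries with those above.

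Among the members, Il3 and Csf2 had the most similar values over the 18 libraries (Pearson r = 0.80), followed by Il9 and Il3 (r = 0.77) and Il9 and Csf2 (r = 0.60). Il10 had r of -0.41, -0.29 and -0.05 with Il9, Il3 and Csf2. After each group's mean was taken out, r lay between -0.46 and 0.29 for the 6 pairs. The libraries share sets and genotypes, so these values describe the group pattern. The genes most like Il9 were Syngr2, Il1rn, which encodes the IL1 receptor antagonist, and Car2, a carbonic anhydrase gene (r = 0.96 each). Those most like Il3 were the cytokine gene Il1a (0.88), Zwint (0.86) and Csf2rb2, a receptor chain for IL3 (0.85). Those most like Csf2 were the mast cell tryptase gene Tpsb2 (0.86), Pkib and Igfbp5 (0.85 each). Tpsb2 and Igfbp5 averaged 6.92 and 4.67 in KO cells of set 3. In every other group they averaged at most 1.32 and 1.25, near the lowest value, so their r rests on KO cells of set 3. Those most like Il10 were the chemokine receptor gene Ccr2, Myo1f and the leukotriene receptor gene Cysltr1 (0.99 each).

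Markers of other cell types were summed on the linear scale in each library and are given as log2. Of 10 mast cell and basophil markers, 9 were measured, without Ms4a2. Their sum was 9.77 to 9.97 in KO and 6.53 to 7.30 in WT cells of set 3. In KO cells it was 6.58 to 7.01 in set 5 and 6.75 to 7.64 in set 6, and in WT cells 7.68 to 8.09 and 7.72 to 7.93. Kit, a growth factor receptor gene, made up most of the later WT sums, at 7.44 to 7.85 in set 5 and 7.30 to 7.51 in set 6, with every other measured mast cell marker at 4.65 or less there. Tpsb2 was at the lowest value in every library of sets 5 and 6, and Fcer1a, a chain of the IgE receptor, in every library of set 5. The mast cell sum thus moved with Il9, Il3 and Csf2 in KO cells of set 3, and its part in those results was not tested. The sum of 6 B cell markers was 7.85 to 10.75 in KO and 5.94 to 7.28 in WT cells of set 3. That of 4 of 8 dendritic cell markers was 11.36 to 13.41 and 10.53 to 10.80. That of 7 NK cell and ILC markers was 9.83 to 10.18 and 8.47 to 8.94, and that of 2 of 5 γδ and NKT cell markers was 6.76 to 8.33 and 4.29 to 5.74. Their parts were not tested either. CD8 markers (2 of 2) stood at 9.70 to 10.11 in KO and 9.93 to 10.20 in WT cells of set 3, and regulatory T cell markers (5 of 5) at 14.62 to 15.26 and 14.52 to 15. T cell markers (5 of 6, without Trac) stood at 14.48 to 14.73 and 14.99 to 15.08, and none was at the lowest value in any group.

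The sum of 5 of 7 macrophage and monocyte markers was 7.17 to 7.65, 9.42 to 9.85 and 10.32 to 10.54 in KO cells of sets 3, 5 and 6. In WT cells it was 6.25 to 6.79, 7.38 to 7.79 and 8.55 to 9.41. Cd68, at 10.04 to 10.44 in KO cells of set 6, made up most of the sum. Itgam, an integrin gene of myeloid cells, went the other way across sets in KO cells, with medians of 3.45, 2.72 and 2.04. Lyz2, the lysozyme gene of myeloid cells, was at the lowest value in every KO library of set 6 and in every WT library of sets 5 and 6, and Csf1r and Cd14 were not among the measured genes. Other sums were also higher in KO than in WT cells of the later sets, without overlap. Regulatory T cell markers stood at 15.42 to 15.60 against 14.91 to 15.03 in set 5 and at 15.49 to 15.74 against 15.08 to 15.24 in set 6. Il2ra made up most of that sum, at 15.03 to 15.24 in KO cells of set 6. Il2ra and Ctla4 were higher in KO cells of both sets without overlap, while Ikzf2 and Lrrc32 overlapped in both. Foxp3 overlapped in set 5, at 6.37 to 7.25 in KO and 5.89 to 6.68 in WT cells. In set 6 Foxp3 was higher in KO cells without overlap, at 5.65 to 6.66 against 4.98 to 5.21. Dendritic cell markers stood at 11.21 to 11.66 against 10.63 to 10.79 in set 5 and at 11.55 to 12.07 against 10.93 to 11 in set 6. Of these, Cd74 was higher in KO cells of both sets without overlap, at 10.54 to 10.86 against 7.42 to 8.40 in set 5. H2-Ab1 and Zbtb46 overlapped in both sets. Itgax overlapped in set 5 and was higher in KO cells of set 6, at low values of 1.63 to 2.34 against 1.01 to 1.33. B cell markers stood at 6.84 to 7.05 against 5.50 to 5.78 in set 5 and at 6.35 to 7.16 against 4.89 to 5.97 in set 6. The γδ and NKT cell markers stood at 6.33 to 6.58 against 3.64 to 4.47 in set 6, and T cell markers were higher in KO cells of both sets. The part of all these markers in the Il10 values was not tested.

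The receptors of the 4 cytokines, whose values did not choose the members, were tested in a limma fit over all genes with Benjamini-Hochberg adjustment. The gene lists tested here and below were, however, chosen with earlier results of these data known. The beta chains that IL3 and GM-CSF use rose in KO cells of set 3. Csf2rb, the shared chain, had values of 8.29, 7.10 and 8.07 in KO and 4.73, 4.38 and 4.11 in WT cells, a difference of 3.41 (SE 0.75; adjusted p = 0.00793). Csf2rb2, the chain of the mouse that serves IL3 alone, had values of 7.98, 7.01 and 7.68 against 4.02, 4.43 and 4.04, a difference of 3.39 (SE 0.39; adjusted p = 5.95e-05). KO and WT libraries did not overlap for either gene. The genes are near-identical copies, so how reads were split between them is uncertain. In sets 5 and 6 neither passed. Csf2rb2 averaged 1.94 in KO and 1.62 in WT cells of set 5, near the lowest value. The differences of Csf2rb were 1.61 and 1.37 (SE 0.75 each; adjusted p = 0.0782 and 0.129) and those of Csf2rb2 0.32 and 0.49 (SE 0.39 each; adjusted p = 0.504 and 0.29). With only the groups of set 6 in the fit, Csf2rb passed there (adjusted p = 0.0215). For Csf2rb in set 5, WT replicate 2 stood at 5.05 and the other WT libraries at 1.10 and 1.35; without it the difference was 2.88 (adjusted p = 9.8e-05), of which the value of 1.10 is a lowest value.

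Among the alpha chains, calls were made in sets 5 and 6. The KO effect differed from that of set 3 for Il3ra (adjusted p = 0.00565 and 0.00551 for sets 5 and 6). It did not pass for Il9r (adjusted p = 0.337 and 0.341) or Csf2ra (adjusted p = 0.0934 and 0.0553). Il3ra, the IL3 binding chain, differed by 0.30 in set 3 (SE 0.19; adjusted p = 0.312) and rose later, by 1.28 (set 5) and 1.29 (set 6; SE 0.19; adjusted p = 2.22e-05 and 2.38e-05). Its mean stood at 11.48 ± 0.11 in KO and 10.20 ± 0.09 in WT cells of set 5 (SD, n = 3 each). Csf2ra, the GM-CSF binding chain, differed by 0.14 in set 3 (SE 0.36; adjusted p = 0.83) and rose by 1.19 and 1.36 in sets 5 and 6 (SE 0.36 each; adjusted p = 0.00898 and 0.00394). Less the median of each library the set 5 call was lost (0.80, adjusted p = 0.0729). Il9r, the IL9 binding chain, differed by 1.08 in set 3 (SE 0.71; adjusted p = 0.341) and rose by 2.29 and 2.27 in sets 5 and 6 (SE 0.71 each; adjusted p = 0.0111 and 0.0116). The set 5 call was lost without KO replicate 1 (1.51, adjusted p = 0.0749), and both were lost after quantile normalization (1.72 and 1.74, adjusted p = 0.0581 and 0.0687). WT replicate 2 of set 5 was at the lowest value for Il9r (1.03). Il2rg, the common gamma chain that IL9 shares with IL2, differed by -0.07 (SE 0.08; adjusted p = 0.593) in set 3. It rose by 0.29 and 0.42 in sets 5 and 6 (SE 0.08 each; adjusted p = 0.00598 and 0.000377), and centring on the library median left -0.10 and 0.0098 (adjusted p = 0.35 and 0.941). Il10ra, the IL10 binding chain, rose by 0.58 in set 5 (SE 0.18; adjusted p = 0.0116), a call lost without WT replicate 1 (adjusted p = 0.0607) and after centring (0.19, adjusted p = 0.406). In sets 3 and 6 Il10ra differed by 0.11 and 0.18 (SE 0.18 each; adjusted p = 0.737 and 0.405). Il10rb, its partner chain, did not pass in any set, with differences of -0.24, 0.19 and -0.10 (SE 0.15 each; adjusted p = 0.299, 0.282 and 0.565). After centring Il10rb was lower in set 6 (-0.52, adjusted p = 0.0115).

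**Figure D3:**
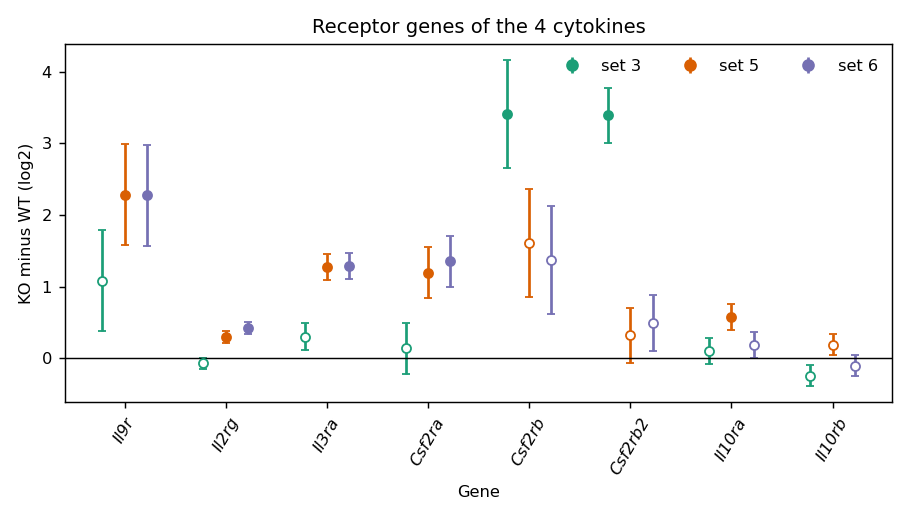
KO minus WT difference on the log2 scale (vertical axis) for the 8 receptor genes (horizontal axis) by set, with bars of 1 SE; filled points have an adjusted p under 0.05 and open points do not. Csf2rb and Csf2rb2 stand at 3.41 and 3.39 in set 3, while Il3ra, Csf2ra and Il9r are filled in sets 5 and 6.

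With the kinases, STAT factors and feedback genes downstream, the receptor list held 22 genes, all measured. In set 3, 3 rose and none fell, while 6.92% of all genes rose and 4.46% fell. In set 5, 19 rose and none fell (50.1% and 8.08% of all genes), and in set 6, 17 rose and none fell (53.9% and 4.59%). With each library centred on its median, 3 rose and none fell in set 3 (7.29% and 3.28% of all genes), 14 rose and none fell in set 5 (24.9% and 24.7% of all genes), and 13 rose and 1 fell in set 6 (18.8% and 18.5%). The median difference of the list was 0.06, 0.85 and 0.78, against -0.07, 0.39 and 0.42 over all genes. Jak2, the kinase bound to the IL3 and GM-CSF beta chain, rose by 2.45 (set 5) and 1.66 (set 6; SE 0.14; adjusted p = 6.58e-09 and 2.18e-07). In set 3 Jak2 rose by 0.50 (SE 0.14; adjusted p = 0.0338), a call that only the removal of WT replicate 2, of the 6 libraries of set 3, left in place (adjusted p from 0.0505 to 0.111). Stat3, the factor that IL10 activates, rose by 1.01 and 0.87 (SE 0.09 each; adjusted p = 1.18e-07 and 7.23e-07). Cish and Pim1, targets of STAT5, rose by 1.49 and 1.28 in set 5 and by 1.23 and 1.22 in set 6 (SE 0.11 to 0.13; adjusted p from 1.43e-07 to 1.2e-06). In set 3 Stat3, Cish and Pim1 differed by -0.08, -0.08 and -0.27 and did not pass.

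The list of transcription factors known to act on the 4 genes held 39 genes, all measured. In set 3, 13 rose and 4 fell, against 6.92% and 4.46% of all genes. In set 5, 30 rose and 3 fell, and in set 6, 28 rose and 3 fell. After centring these counts were 23 and 4 in set 5, against 24.9% and 24.7% of all genes, and 18 and 5 in set 6, against 18.8% and 18.5%. Its median difference was 0.18, 0.86 and 0.71 in sets 3, 5 and 6. The counts in sets 5 and 6 stand beside 50.1% and 53.9% of all genes that rose and 8.08% and 4.59% that fell. Tested against a minimum fold of 1.2, 6 rose and 1 fell in set 3, and with only the groups of set 3 in the fit 3 rose and 1 fell. In set 3, 2 fell without KO replicate 1 or without WT replicate 3.

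Among factors linked to Il9, Gata3 rose at each of the 3 sets. Its differences were 0.73, 2.52 and 2.40 (SE 0.11; adjusted p = 0.000715, 1.16e-09 and 1.27e-09). Batf and Irf4, which act together at Il9, followed different courses. Batf rose by 0.81, 2.90 and 2.95 (SE 0.17 each; adjusted p = 0.00598, 6.58e-09 and 9.17e-09). Irf4 differed by 0.11 in set 3 (SE 0.10; adjusted p = 0.515) and rose by 2.18 and 1.83 in sets 5 and 6 (SE 0.10 each; adjusted p = 1.24e-09 and 7.43e-09). Il9 itself was highest in set 3, where its KO minus WT difference was 5.52. The Il9 difference in set 6 was 2.74, in part resting on the lowest value. The differences of Gata3, Batf and Irf4 were smallest in set 3. By level, Irf4 was also highest in set 3, averaging 13.845 (KO) and 13.73 (WT). In sets 5 and 6 Irf4 averaged 12.33 and 12.01 (KO) and 10.15 and 10.18 (WT). The KO averages of Gata3 and Batf were lower in set 3 than later, and their WT averages were higher. The part of these factors in the Il9 values was not tested. Rbpj, the DNA-binding partner of Notch, rose by 1.36, 1.72 and 1.38 (SE 0.14 each; adjusted p = 2e-05, 6.97e-08 and 7.91e-07). Etv5, an ETS factor, rose by 1.54 in set 3 (SE 0.28; adjusted p = 0.00228) and fell by 0.96 and 0.97 in sets 5 and 6 (SE 0.28 each; adjusted p = 0.00768 and 0.00726). Bcl6, a repressor, fell by 1.66 and 1.72 in sets 5 and 6 (SE 0.38 each; adjusted p = 0.00133 and 0.00107), and Irf8 fell by 0.87 and 1.04 (SE 0.17 each; adjusted p = 0.000427 and 9.53e-05). In set 3 Bcl6 differed by -0.96 (SE 0.38; adjusted p = 0.116) and Irf8 by -0.38 (SE 0.17; adjusted p = 0.175).

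Among the E protein genes, whose products Id3 binds, Tcf3 and Tcf12 changed little. The E protein gene Tcf4 was also measured and is not described here. Tcf3, which encodes E2A, fell by 0.32 in set 3 (SE 0.07; adjusted p = 0.00812). Tcf12, which encodes HEB, fell by 0.26 in set 3 (SE 0.08; adjusted p = 0.0482), a call lost without any 1 library except KO replicate 2 (adjusted p from 0.079 to 0.201) and after centring (adjusted p = 0.0765). In set 5 Tcf3 rose by 0.48 and Tcf12 by 0.52, and in set 6 by 0.38 and 0.31 (SE 0.07 to 0.08; adjusted p from 2.82e-05 to 0.00325). After centring these were 0.09 and 0.13 in set 5 and -0.031 and -0.10 in set 6, none of which passed.

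Among factors linked to Il10, some rose and others fell or did not pass. Maf, which encodes c-Maf, an activator of Il10, had KO values of 10.08, 8.54 and 9.88 and WT values of 6.60, 7.71 and 7.45 in set 3, with KO replicate 2 low as for Il10. Maf rose by 2.25, 3.67 and 1.87 in sets 3, 5 and 6 (SE 0.39 each; adjusted p = 0.00153, 8.57e-07 and 0.000627). The values of Maf in sets 5 and 6, Prdm1 and Nfil3 lie outside the naming rule and were chosen after their values were seen. Prdm1, which encodes Blimp-1, rose by 1.22, 1.55 and 1.59 (SE 0.31 each; adjusted p = 0.0195, 0.000487 and 0.00041). Its set 3 call did not survive the removal of KO replicate 1, KO replicate 3 or WT replicate 1 (adjusted p from 0.082 to 0.0985). Nfil3 rose by 0.96, 2.11 and 1.56 (SE 0.20 each; adjusted p = 0.00623, 3.78e-07 and 9.49e-06). Ikzf1, which encodes Ikaros, fell by 0.79 in set 3 (SE 0.08; adjusted p = 1.09e-05). In set 5 Ikzf1 differed by 0.18 (SE 0.08; adjusted p = 0.0483), with the opposite sign after centring (-0.21, adjusted p = 0.0327) and a call lost without any 1 library (adjusted p from 0.0583 to 0.121), and in set 6 by -0.17 (adjusted p = 0.0714). In set 6 Ikzf1 was called lower after centring (-0.58, adjusted p = 3.88e-05), after quantile normalization (-0.58, adjusted p = 2.96e-05), with the replicate block (adjusted p = 0.0482), and without KO replicate 2 or WT replicate 1 (adjusted p = 0.0107 and 0.0327). Ets1 fell by 0.37 in set 3 (SE 0.10; adjusted p = 0.0269), a call that ended on removal of KO replicate 1, KO replicate 2 or WT replicate 3 (adjusted p from 0.0636 to 0.149), and rose by 1.13 and 1.21 in sets 5 and 6 (SE 0.10 each; adjusted p = 1.61e-07 and 1.37e-07).

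With only the groups of set 3 in the fit, the set 3 calls on Maf, Etv5, Batf, Tcf3, Tcf12, Ets1, Prdm1 and Nfil3 were lost (adjusted p from 0.0518 to 0.165). The same held for the neighbours Fbxl21, Mapkapk2 and Il19 described next (adjusted p from 0.067 to 0.121).

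**Figure D4:**
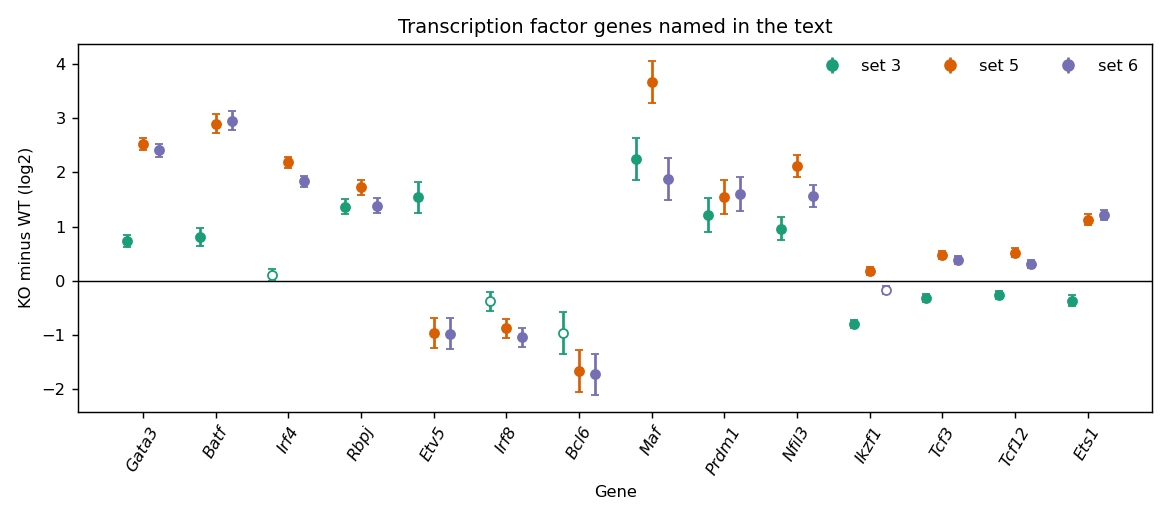
KO minus WT difference on the log2 scale (vertical axis) for the transcription factor genes named in the text (horizontal axis) by set, with bars of 1 SE; filled points have an adjusted p under 0.05 and open points do not. Gata3, Batf, Rbpj, Maf, Prdm1 and Nfil3 are filled above 0 in all 3 sets, and Etv5 is above 0 in set 3 and below 0 in sets 5 and 6.

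The measured genes beside the members did not all move with them. Order along the chromosome was taken from RefSeq on GRCm38.p6. Acsl6, an acyl-CoA synthetase gene and the protein-coding gene next to Il3, fell in all 3 sets. Its values in set 3 were 3.86, 4.55 and 3.91 in KO and 6.49, 5.55 and 5.81 in WT cells, a difference of -1.84 (SE 0.31; adjusted p = 0.00124). In set 5 Acsl6 fell by 4.35 and in set 6 by 1.80 (SE 0.31 each; adjusted p = 2.62e-08 and 0.000126). P4ha2, a prolyl hydroxylase gene on the other side of Csf2, differed by 0.43 in set 3 (SE 0.70; adjusted p = 0.724) and fell by 2.54 and 2.02 in sets 5 and 6 (SE 0.70 each; adjusted p = 0.0052 and 0.0208). The set 6 call on P4ha2 did not survive the removal of KO replicate 1, KO replicate 3 or WT replicate 3 (adjusted p from 0.0539 to 0.106). Further along the cluster Il5, Il13 and Il4 rose by 4.11, 4.96 and 4.71 in set 3 (SE 0.36 to 0.46; adjusted p from 9.46e-07 to 1.28e-05), by 2.90, 3.20 and 2.0 in set 5, and by 2.55, 2.99 and 2.18 in set 6 (adjusted p from 1.97e-06 to 0.00136). Unlike Csf2, these 3 genes were called higher in sets 5 and 6 as well. Irf1, which lies between Il5 and Csf2, differed by -0.40 in set 3 (SE 0.14; adjusted p = 0.0753) and rose by 1.96 and 1.89 in sets 5 and 6 (SE 0.14 each; adjusted p = 2.69e-08 and 5.68e-08).

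Beside Il9, Fbxl21, an F-box protein gene, rose by 1.99 in set 3 (SE 0.60; adjusted p = 0.0434), from a mean of 1.80 ± 0.84 in WT to 3.79 ± 0.26 in KO cells (SD, n = 3 each). That call was lost without any 1 library except WT replicate 1 (adjusted p from 0.0809 to 0.147), and Fbxl21 differed by 0.01 and -0.51 in sets 5 and 6 (SE 0.60 each; adjusted p = 0.988 and 0.483). WT replicate 3 of set 3 was at the lowest value for Fbxl21 (1.04). In set 5 KO replicates 1 and 3 (1.02 and 1.09) and WT replicates 1 and 2 (1.10 and 1.03) were there too. The same held in set 6 for KO replicates 1 and 2 (1.0 and 1.07) and WT replicate 3 (1.02). The later differences of Fbxl21 therefore rest in part on the lowest value. Around Il10, the IL10 family gene Il24 rose in every set. Its differences were 2.95, 4.34 and 3.81 (SE 0.36; adjusted p = 9.75e-05, 8.49e-08 and 4.2e-07). Il24 reached 14.40 ± 0.13 in KO cells of set 6, against 10.59 ± 0.39 in WT cells (SD, n = 3 each). Il19, the measured gene next to Il10 on that side, rose by 1.57 in set 3 (SE 0.33; adjusted p = 0.00625) and differed by 0.17 and -0.25 in sets 5 and 6 (SE 0.33 each; adjusted p = 0.694 and 0.537). WT replicates 1 and 2 of set 3 were at the lowest value for Il19 (1.11 and 1.05), so its set 3 difference rests in part on that value. On the other side Mapkapk2, a kinase gene of the p38 pathway, rose by 0.55, 0.64 and 0.56 (SE 0.11 each; adjusted p = 0.00551, 0.000149 and 0.000522). After centring, Mapkapk2 did not pass in sets 5 and 6 (0.25 and 0.15, adjusted p = 0.0753 and 0.323). Rassf5, farther on that side, differed by -0.11 in set 3 (SE 0.08; adjusted p = 0.416) and rose by 1.21 and 0.94 in sets 5 and 6 (SE 0.08 each; adjusted p = 1.94e-08 and 2.34e-07).

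Of the 26 neighbours listed, 20 were measured. In set 3, 9 rose and 1 fell, with a median of 0.42, against 6.92% and 4.46% of all genes. In set 5, 11 rose and 2 fell and in set 6, 12 rose and 2 fell, with medians of 0.65 and 0.59, against 50.1% and 53.9% of all genes that rose and 8.08% and 4.59% that fell. After centring 8 rose and 5 fell in set 5 (24.9% and 24.7% of all genes), and 7 rose and 3 fell in set 6 (18.8% and 18.5%). With only the groups of set 3 in the fit, 4 rose. Among 25 other T cell cytokines and chemokines, 17 rose and 1 fell in set 3 (6.92% and 4.46% of all genes), with a median of 1.78. Without KO replicate 1 of set 3, 9 rose, and without WT replicate 1, 10 rose. In sets 5 and 6, 16 of these genes rose and 2 fell in each. Of all genes, 50.1% and 53.9% rose and 8.08% and 4.59% fell. After centring, 12 rose and 4 fell in set 5 and 13 rose and 4 fell in set 6. The shares of all genes were then 24.9% and 18.8% that rose and 24.7% and 18.5% that fell.

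**Figure D5:**
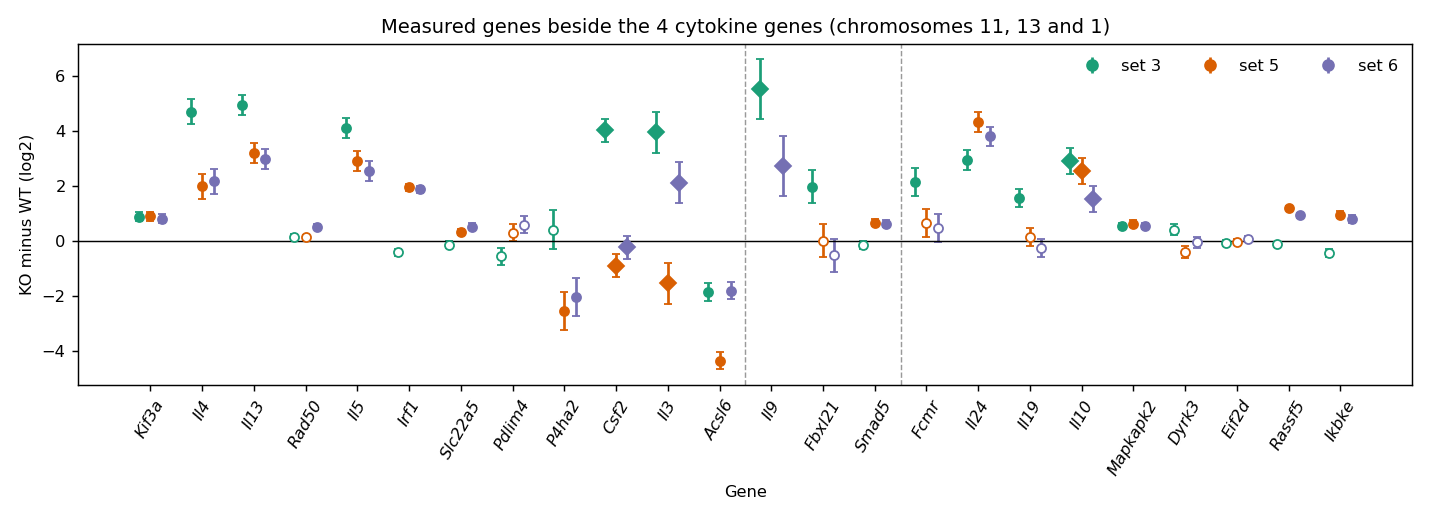
KO minus WT difference on the log2 scale (vertical axis) for the members (diamonds, not tested) and their measured neighbours (circles; filled where the adjusted p was under 0.05) in their order along chromosomes 11, 13 and 1, parted by dashed lines, with bars of 1 SE. On chromosome 11, Csf2 and Il3 lie above 0 in set 3 while Acsl6 lies below 0 in all 3 sets.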

How the data were processed

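The 18 libraries came from Id3 KO and WT CD4 T cells, 3 in each of 6 groups, with polyadenylated RNA and directional libraries, per the labels' protocols. Salmon 1.9.0, edgeR, limma and the build GRCm39 are named, without roles, in the submitters' processing notes. The deposited values are on a log2 scale, per the file headers and their range; how the authors normalized them was not stated in those sources. A second deposited table holds the authors' log2 fold changes, a test score, p-values and adjusted p-values; its fold changes and the group differences computed here matched within 8.4e-14. Its 491, 4741 and 4410 genes called for KO against WT in sets 3, 5 and 6 were all among those called here. It was used for these comparisons and for contrast names.

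Tests used limma 3.58.1 in R 4.3.3: 6 group means over all 18 libraries, a trend of variance, 12 residual degrees of freedom, and Benjamini-Hochberg adjustment over 12547 genes with a threshold of 0.05. A filter for 3 libraries with values of at least 0 left all genes in. The script was tested on simulated data. The 4 members and the gene lists were chosen with earlier results of these data known; members got no p-value. Genes named are the members, Id3, up to 4 called genes per list, direction and KO against WT comparison with the smallest adjusted p, all receptors of the 4 cytokines, the measured genes next to a member, and the 3 genes most like each member by Pearson r. Of the gene identifiers, 12528 matched the name table. Figures used matplotlib 3.10.9.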

Additional observations from a re-analysis of the deposited data

Results flagged for a closer look

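For 28 of the list genes named above, the KO minus WT difference itself differed between set 3 and a later set. This was a limma contrast of the 2 differences with Benjamini-Hochberg adjustment over all genes (adjusted p from 3.51e-07 to 0.0495). Genes of the lists that were not named above also passed and are not given here. Of all genes, 50.0% passed the same contrast for set 5 and 50.3% for set 6. Values are the later difference minus that of set 3, on the log2 scale, and the median over all genes was 0.42 for set 5 and 0.45 for set 6. The comparisons share the libraries of set 3, and the members got no such test.

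Among receptors and signalling genes, set 3 against set 5, the value was 0.97 for Il3ra, 0.37 for Il2rg, 1.94 for Jak2, 1.1 for Stat3, 1.56 for Cish, 1.55 for Pim1 and -3.07 for Csf2rb2. In set 5 Csf2rb2 lay near the lowest value in both genotypes. Among receptors and signalling genes, set 3 against set 6, the value was 0.99 for Il3ra, 0.5 for Il2rg, 1.16 for Jak2, 0.95 for Stat3, 1.31 for Cish, 1.49 for Pim1 and -2.9 for Csf2rb2.

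Among transcription factors, set 3 against set 5, the value was 1.79 for Gata3, 2.07 for Irf4, 2.09 for Batf, 0.8 for Tcf3, 0.78 for Tcf12, 0.98 for Ikzf1, 1.5 for Ets1, 1.42 for Maf, 1.15 for Nfil3 and -2.5 for Etv5. Among transcription factors, set 3 against set 6, the value was 1.67 for Gata3, 1.72 for Irf4, 2.14 for Batf, 0.7 for Tcf3, 0.57 for Tcf12, 0.63 for Ikzf1, 1.58 for Ets1, -2.51 for Etv5 and -0.66 for Irf8.

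Among the neighbours of the 4 genes, set 3 against set 5, the value was 2.36 for Irf1, 1.32 for Rassf5, 1.38 for Il24, -2.5 for Acsl6, -2.96 for P4ha2, -1.76 for Il13, -2.72 for Il4 and -1.4 for Il19. Among the neighbours of the 4 genes, set 3 against set 6, the value was 2.29 for Irf1, 1.05 for Rassf5, -2.44 for P4ha2, -1.56 for Il5, -1.97 for Il13, -2.53 for Il4, -2.5 for Fbxl21 and -1.82 for Il19. The values of Fbxl21 and Il19 rest in part on the lowest value.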

How the results depend on the processing

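The depth of the libraries is unknown and the replicates were made nearly alike in their distribution, which limits every test. Leaving out 1 library at a time gave member differences of 5.07 to 6.28 (Il9), 3.47 to 4.94 (Il3), 3.78 to 4.16 (Csf2) and 2.47 to 3.67 (Il10) in set 3. In set 5 they ran from -2.18 to -0.82 (Il3), -1.28 to -0.41 (Csf2) and 2.30 to 2.77 (Il10), and in set 6 from 1.65 to 3.39 (Il9), 1.91 to 2.45 (Il3), -0.55 to 0.051 (Csf2) and 1.46 to 1.59 (Il10). The set 6 minus set 3 effect of Il3 ran from -2.81, without KO replicate 3 of set 3, to -1.34. All genes called in set 3 ran from 666 to 1914, against 1427, with 666, 918 and 872 without KO replicate 1, KO replicate 3 and WT replicate 1. Other cytokines in set 3 ran from 9 to 17 that rose and 0 to 1 that fell, factors that fell there from 2 to 4, neighbours that fell from 1 to 2 in sets 3 and 6, and other cytokines that fell in set 6 from 1 to 2. Of 162 results, none changed with no filter, a stricter filter or 1 added on the linear scale. Where a value changed below, the cause was not tested.

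Centred on the library median, Il10 gave 2.18 in set 5 and 1.11 in set 6. Falls numbered 0 (other cytokines, set 3), 5 (neighbours, set 5), 4 (other cytokines, sets 5 and 6) and 1 (receptors, set 6). In set 6, 18 factors rose and 5 fell, 7 neighbours rose, and 4669 genes passed against 7336. Signs turned for Il2rg (-0.10) and Ikzf1 (-0.21) in set 5 and for Tcf3 (-0.031) and Tcf12 (-0.10) in set 6. Of all calls, 50.2% in set 5 and 50.4% in set 6 were higher, against 86.1% and 92.1% as deposited. After quantile normalization these were 47.9% and 47.2%, Il10 gave 2.20 in set 5 and 1.07 in set 6, Il3 1.57 and Csf2 -0.71 in set 6. Falls numbered 2 (factors, set 3), 0 (other cytokines, set 3), 5 (neighbours, set 5), 4 (other cytokines, sets 5 and 6) and 1 (receptors, set 6). In set 6, 11 receptor genes and 7 neighbours rose, 18 factors rose and 5 fell, and 4723 genes passed. Signs turned for Il2rg (-0.11, set 5; -0.025, set 6), Ikzf1 (-0.20, set 5), Tcf3 (-0.049, set 6) and Tcf12 (-0.12, set 6).

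With no variance trend, 0 other cytokines fell in set 3 and 1 in set 6. Against a minimum fold of 1.2, an alternative chosen after seeing the data, 6 factors rose and 1 fell in set 3, 0 other cytokines fell in set 3 and 1 in set 6, and 492, 4743 and 4419 genes passed; 83.3% of set 3 calls were higher, against 60.8%. With only the groups compared, 3 factors rose and 1 fell, 4 neighbours rose, 0 other cytokines fell and 379 genes passed in set 3, and Csf2rb passed in set 6 (1.37, adjusted p = 0.0215). Replicate numbers did not pair the samples (correlation of deviations -0.08 to 0.18). With the replicate number as a block, 2 receptor genes and 3 neighbours fell in set 3, where Pim1 (adjusted p = 0.036, limma) and Irf1 (0.0445) passed, as did Ikzf1 in set 6 (0.0482), and Tcf12 (0.0512) and Fbxl21 (0.0504) did not.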
